A study of Mus musculus with 4 samples.

Results

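The genes described here are 36 integrin chains and adhesion linkers of the mouse, taken by symbol from 56832 listed genes: 18 alpha chains, 8 beta chains and 10 intracellular linker genes. RNA sequencing read them in 4 libraries made from microglia, the brain's own macrophages, which had grown in primary glial cultures of C57BL/6 mice and were released with trypsin and sorted by flow cytometry. The 4 libraries are 1 group, cultured microglia, labelled replicates 1 to 4 with no genetic change or treatment given. In the series' design these cells are the endogenous counterpart of cultured blood progenitors and of progenitors kept with glia. Libraries of those other groups are not analysed here, and nothing below compares groups. Whether each library had its own culture or animal is not in the labels, so SDs and p-values measure the spread between 4 libraries, possibly a technical one. Which antibodies were used for sorting is not stated in the labels, so it is not known whether a member such as Itgam, whose product CD11b is a common sorting target, was used to choose the cells.

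Integrins are receptors of the cell surface made of an alpha and a beta chain, which must pair before either reaches the membrane. Outside the cell they hold matrix proteins or proteins of other cells. Inside, the beta chain tail is bound by talins and kindlins, which switch the receptor to its active state, and by further linkers that tie it to actin. In microglia integrins are known for adhesion, for uptake of complement-coated material through CR3 (the pair of Itgam and Itgb2), and for releasing active TGF-beta.

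The libraries held 23212183 to 28469813 gene counts, so 1 CPM (a count scaled to a common total of gene counts) stood for 23.2 to 28.5 reads. A count of 0 in 1 library allows up to 3 counts, or 0.105 to 0.129 CPM, for counting error only. The identity of the cells was checked on markers: all 7 microglia and macrophage markers were above 1 CPM in every library, with a summed level of 16241 to 17198 CPM. Of these, P2ry12 ranged from 164 to 249 CPM between libraries. All 7 astrocyte markers were above 1 CPM in every library too, with a far lower sum of 277 to 470.5 CPM. Across 11704 genes, which are not independent replicates, any 2 libraries correlated with r between 0.990 and 0.996 (Pearson, log2(CPM + 1)). The labels give the sex as female, and Xist was at 253 to 341 CPM, but the Y-linked gene Ddx3y was also at 30.0 to 41.5 CPM in these libraries. In bulk RNA, fewer cells of a type and less RNA per cell cannot be told apart.

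A gene was called transcribed when it reached 1 CPM in each of the 4 libraries. This held for 25 of the 36 genes, or 69.4%, where 51.8% of all 21190 protein-coding genes passed the same threshold: 11 of 18 alpha chains, 5 of 8 beta chains and 9 of 10 linkers. Another 8 members had some counts without reaching the threshold, and Itgad, Itgb6 and Fermt1 had 0 counts in all libraries. Levels of different genes are given in TPM (counts per gene length, scaled to a common total), as mean ± SD with n = 4 libraries throughout. By mean TPM, 10 members were above 100.

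Of 24 heterodimers known from protein work, 14 had both chains transcribed, 9 had 1 chain and 1 had neither. Of the 12 pairs with beta1, 8 were complete at the RNA level, as were 3 of the 4 pairs with beta2, and 3 of the 4 pairs of Itgav with Itgb3, Itgb5, Itgb6 and Itgb8. When each pair was described by its lower chain, 5 pairs lay above 100 TPM. These were alpha6-beta1, a laminin receptor, at 256 TPM; alphaM-beta2, the complement receptor CR3, at 212; alphaV-beta1 and alphaV-beta5, both set by Itgav at 139; and alpha5-beta1, the fibronectin receptor, at 122. The order of the first 2 holds by merged exon length; with the exon bases of no other gene as length Itgam was at 624 TPM and Itga6 at 236 TPM, which puts alphaM-beta2 first. Another 5 lay between 5 and 100 TPM: alpha9-beta1 at 53.9, alphaL-beta2 (LFA-1) at 42.0, alpha4-beta1 at 13.8, alphaV-beta3 at 8.69 and alpha3-beta1 at 6.20. The lowest complete pairs were alphaV-beta8 at 3.23 TPM, alphaX-beta2 (CR4) at 1.99, alpha7-beta1 at 0.725 and alpha1-beta1 at 0.718. Pairs were called complete on CPM, which takes no account of gene length. By TPM the pair alpha4-beta7, not called complete, had its lower chain at 1.08, above alpha7-beta1 and alpha1-beta1. In 12 of the 14 the alpha chain was the lower one, and alphaV-beta3 and alphaV-beta8 were set by the beta chain. Transcripts of both chains do not show that the receptor was present at the surface.

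**Figure D1:**
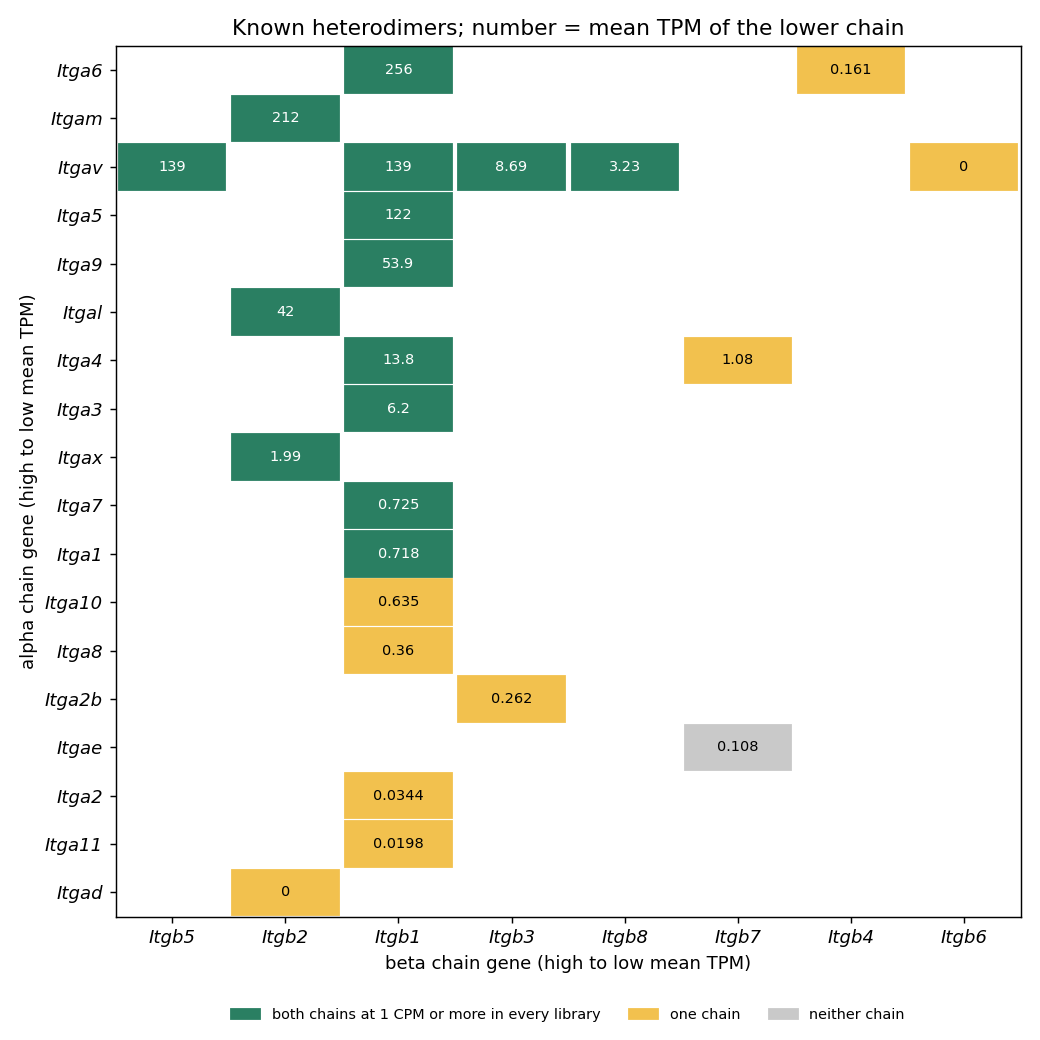
Grid of the 24 known heterodimers, with alpha chain genes as rows and beta chain genes as columns, both in order of mean TPM. Colour gives how many of the 2 chains reached 1 CPM in every library and the number is the mean TPM of the lower chain; 14 pairs had both chains, and by merged exon length the highest of these were alpha6-beta1 at 256 TPM and alphaM-beta2 at 212 TPM, an order that turns with exon bases of no other gene as length (Itga6 at 236 TPM, Itgam at 624 TPM).

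The 10 pairs that lacked a chain fell into 3 kinds. In the first, 1 chain was transcribed and its partner had a mean under 0.5 CPM. Itgb4, which with Itga6 forms the laminin receptor of hemidesmosomes, was at 0.161 TPM ± 0.109, beside Itga6 at 256 ± 15.3. It had 3 to 18 counts a library, or 0.128 to 0.632 CPM. Itgb6, whose pair with Itgav activates TGF-beta in epithelia, and Itgad had 0 counts. The collagen receptor chain Itga2 had 2, 0, 5 and 0 counts in replicates 1 to 4, and Itga11, another of these, had 3 counts in all. Itga2b, the platelet chain, had 2, 20, 8 and 12 counts, or 0.0740 to 0.853 CPM, beside its partner Itgb3 at 8.69 TPM. The highest libraries of Itgb4 and Itga2b thus lay within the range of the third kind. In the second kind neither chain was transcribed: Itgae, of the pair that holds lymphocytes in epithelia, had 1 to 10 counts a library, and its partner Itgb7 was at 1.08 TPM ± 0.188 and reached 1 CPM in 1 library. In the third kind 1 chain was transcribed and the other had a mean between 0.5 and 1 CPM. Itgb7, which also forms a gut-homing pair with Itga4, was at 0.740, 0.768, 1.08 and 0.948 CPM in replicates 1 to 4, beside Itga4 at 13.8 TPM. Itga10 was at 1.26, 0.768, 1.29 and 0.562 CPM in replicates 1 to 4, and Itga8 at 0.814, 1.02, 0.689 and 0.597. In GENCODE M21 other genes cover 33.5% of the exon bases of Itga10 and 19.7% of those of Itgad; the part of shared reads in their counts was not tested. Just inside the threshold, Itga7 was at 2.48, 1.79, 1.34 and 1.30 CPM. Counting genes at 0.5 CPM or more would add Itga8, Itga10 and Itgb7 and make 17 pairs complete. A threshold of 5 CPM would drop Itga1, Itga7 and Itgax and leave 11. With 1 TPM in every library as threshold Itga1 and Itga7 would drop and 12 pairs be left.

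Among the beta chains, Itgb5, whose only known partner is Itgav and whose pair binds vitronectin, was far above the others. It stood at 2243, 2218, 2141 and 2086 TPM in replicates 1 to 4, above 99.8% of protein-coding genes. Itgb2, the chain shared by the leukocyte integrins, followed at 718, 682, 676 and 637 TPM, and Itgb1, the most widely shared chain, at 540, 509, 510.3 and 545 TPM. No ranges of these 3 chains overlapped, and Itgb5 made up 64.1% ± 0.532 of the summed TPM of the 8 beta chains. The difference Itgb2 minus Itgb1 was 0.37 ± 0.0948 on the log2(TPM + 1) scale, positive in 4 of 4 libraries (two-sided exact permutation test by sign flips, p = 0.13, which is the lowest value possible with 4 libraries; 7 such differences were tested and the Benjamini-Hochberg value was the same). Per read and not per length the mean difference was -0.05 on log2(CPM + 1). Itgb2 and Itgb1 were then nearly level in replicates 1 to 3, at 637 and 641, 616 and 615, and 611 and 617 CPM. In replicate 4 they were at 577 and 661 CPM.

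Below these came Itgb3, the partner of Itgav in osteoclasts and of Itga2b in platelets, at 8.69 TPM ± 0.492. The difference Itgb5 minus Itgb3 was 7.81 ± 0.0532 in log2(TPM + 1), positive in 4 of 4 libraries (exact permutation p = 0.13). The 4 platelet and megakaryocyte markers summed to 1.37 to 1.71 CPM, mostly from the platelet chemokine gene Ppbp, which reached 1 CPM in every library with 27 to 35 counts; Gp9 had 3 to 6 counts a library, and Gp6 and Gp1bb had 0, though 149 of the 2087 exon bases of Gp1bb belong to no other gene. Their part in the counts of Itga2b and Itgb3 was not tested. Itgb8, whose pair with Itgav releases active TGF-beta, was at 3.01, 3.79, 3.05 and 3.06 TPM, above the range of Itgb7.

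**Figure D2:**
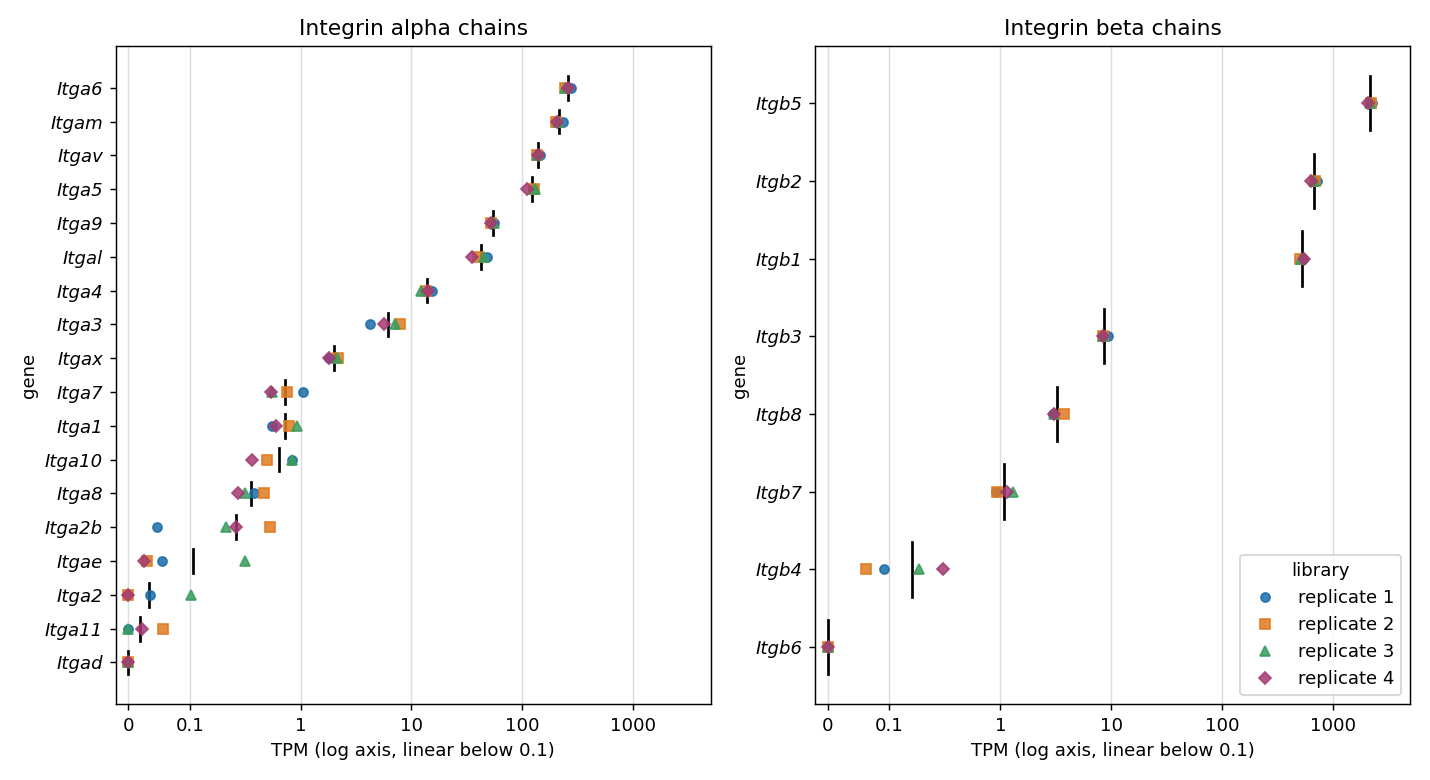
TPM of the integrin alpha chains (left) and beta chains (right) in each library; the axis is logarithmic and turns linear below 0.1, and the black line is the mean. By merged exon length Itga6 leads the alpha chains, where Itgam leads with exon bases of no other gene as length, and Itgb5 leads the beta chains, while Itgad and Itgb6 sit at 0 in all 4 libraries.

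Among the alpha chains, the laminin receptor chain Itga6 was highest by merged exon length, at 276, 245, 244 and 260.3 TPM in replicates 1 to 4. Itgam followed at 234, 201, 211 and 204 TPM, Itgav, the chain with the most beta partners, at 146, 136, 136 and 138 TPM, and Itga5, the fibronectin receptor chain, at 125, 127, 129 and 109 TPM. Neighbours in this order did not overlap in range down to Itgax; from Itga7 downwards all neighbours overlapped. The difference Itgav minus Itga5 was 0.18 ± 0.122 on the log2(TPM + 1) scale, positive in 4 of 4 libraries (exact permutation p = 0.13) by merged exon length. It was 0.63 with the longest transcript as length and 1.30 on log2(CPM + 1), so its size depends on the length used. Itga9, which binds tenascin and osteopontin, was at 53.9 TPM ± 1.69, and Itga4, the chain of the VCAM-1 receptor VLA-4, at 13.8 ± 1.36. The other laminin receptor chains were far below Itga6, with Itga3 at 6.20 ± 1.60 and Itga7 at 0.725 ± 0.239. Of the 4 collagen receptor chains only Itga1 was called transcribed, at 0.718 TPM ± 0.172 and 2.999 to 5.13 CPM.

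Of the 5 leukocyte alpha chains, Itgam, Itgal and Itgax were transcribed. Itgal, the alpha chain of LFA-1, was at 47.7, 39.8, 45.3 and 35.3 TPM, and Itgax, the CD11c chain, at 1.80, 2.19, 2.15 and 1.80 TPM. Itgam made up 82.9% ± 1.25 of the summed TPM of the alpha chains that pair with beta2, Itgal 16.3% ± 1.23 and Itgax 0.779% ± 0.115. The difference Itgam minus Itgal was 2.32 ± 0.129 in log2(TPM + 1), positive in 4 of 4 libraries (exact permutation p = 0.13). Of the T lymphocyte markers Cd3d and Cd3e, chains of the CD3 complex, Cd3d had 0 counts in all 4 libraries and Cd3e had 1 count in all, beside these values of Itgal. The Itgam value has a limit: in GENCODE M21, another annotated gene, Gm49368, lies over 68.7% of its exon bases. If reads shared between genes had been discarded, the length that could give counts would be shorter; with the exon bases of no other gene as length, Itgam was at 624 TPM ± 43.2, above Itga6 at 236 TPM ± 13.9, and Itgam minus Itgal was 3.98 on the log2(TPM + 1) scale.

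Chains were next summed by partner. Itgb2 stood at 2.65 ± 0.116 times the summed TPM of its 4 alpha chains, from 2.53 to 2.81 over the libraries. With exon bases of no other gene as length this ratio was 0.941 ± 0.0413, so which side is in excess depends on how shared reads were counted for Itgam. Itgb1 stood at 1.156 ± 0.0491 times the sum of 11 alpha chains, leaving out Itgav; with the longest transcript as length the ratio was 0.737 ± 0.0256, so here too the direction depends on the length used. Within that sum Itga6 made up 56.3% ± 2.25, Itga5 26.9% ± 1.92, Itga9 11.8% ± 0.346 and Itga4 3.04% ± 0.246. Itgb5 stood at 15.6 ± 0.531 times Itgav, and at 11.1 ± 0.377 times with the longest transcript as length, so an excess of the beta5 transcript over its only alpha chain was present under both. Itgb5 made up 99.5% of the summed TPM of Itgb3, Itgb5, Itgb6 and Itgb8.

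**Figure D3:**
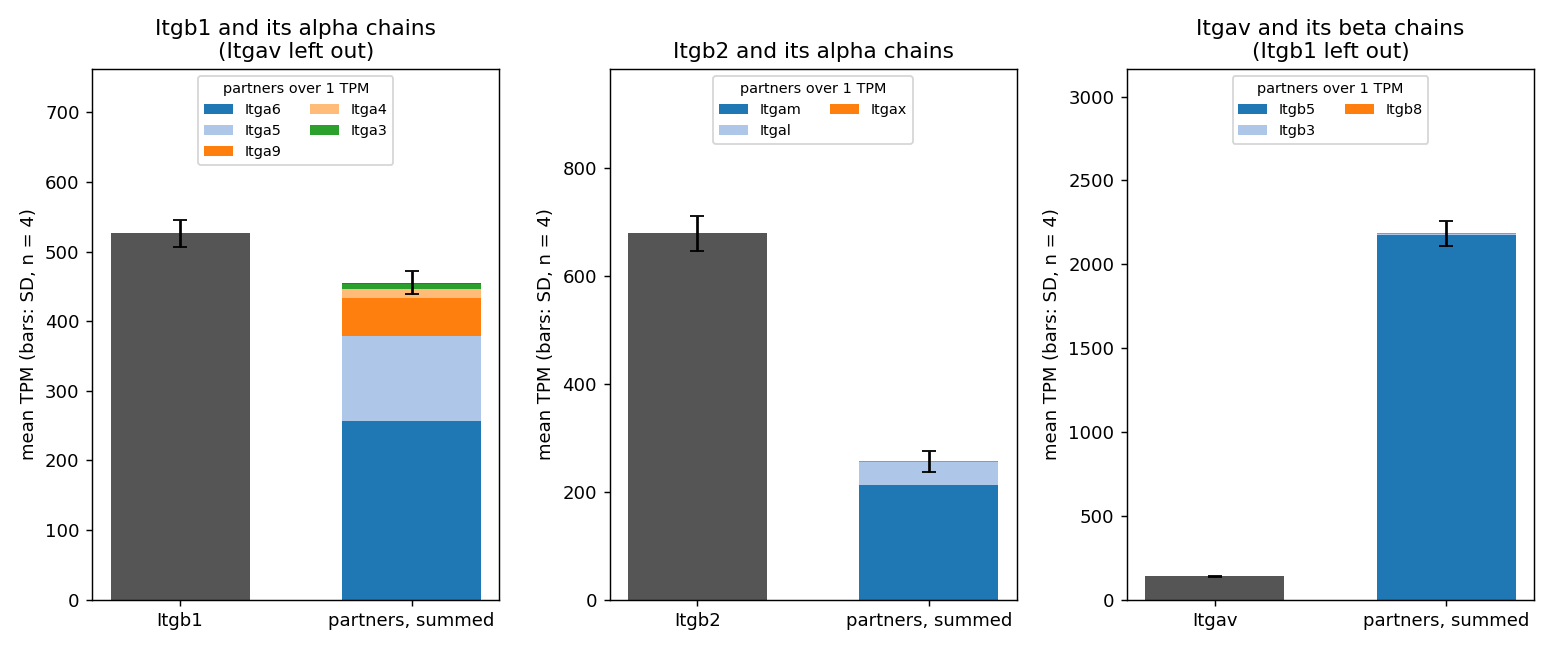
Mean TPM of a shared chain (grey) beside the stacked mean TPM of its partners, for Itgb1, Itgb2 and Itgav; error bars are the SD over 4 libraries, on the right bar that of the sum. The partners of Itgav sum to far more than Itgav, almost wholly through Itgb5, and Itgb2 stands above the sum of its alpha chains, an order that turned to 0.941 times with exon bases of no other gene as length.

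The bases upstream of the start sites of alphaV-beta5 and of Itgam are shown because these genes carry the highest beta chain, its partner and the leading leukocyte alpha chain. The sequences are RefSeq's, on GRCm38.p6 and the plus strand, and each gives the 250 bases before the annotated start, at chr16:33829415-33829664 for Itgb5, chr2:83724147-83724396 for Itgav and chr7:128062390-128062639 for Itgam. Capitals mark the letters GAGGAA, a core bound by the macrophage factor PU.1, and GGGCGG, the GC box bound by Sp1, on either strand; the motifs do not overlap here.
Itgb5: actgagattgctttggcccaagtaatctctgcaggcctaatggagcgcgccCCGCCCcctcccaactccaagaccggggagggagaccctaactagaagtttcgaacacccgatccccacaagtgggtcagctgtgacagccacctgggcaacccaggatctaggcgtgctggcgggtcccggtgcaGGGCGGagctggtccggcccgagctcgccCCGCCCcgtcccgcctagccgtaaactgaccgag
Itgav: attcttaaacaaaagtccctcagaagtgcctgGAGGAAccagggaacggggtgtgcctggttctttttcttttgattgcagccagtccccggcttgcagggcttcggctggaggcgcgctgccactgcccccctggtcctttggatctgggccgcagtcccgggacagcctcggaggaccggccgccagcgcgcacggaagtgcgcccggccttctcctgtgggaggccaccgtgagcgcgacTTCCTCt
Itgam: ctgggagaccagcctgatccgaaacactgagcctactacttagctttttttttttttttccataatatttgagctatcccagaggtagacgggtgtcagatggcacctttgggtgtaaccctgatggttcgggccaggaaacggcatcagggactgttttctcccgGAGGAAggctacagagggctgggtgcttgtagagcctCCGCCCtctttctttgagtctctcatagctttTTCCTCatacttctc
Itgb5 held GGGCGG 3 times and GAGGAA 0 times, Itgav GAGGAA 2 times and GGGCGG 0 times, and Itgam GAGGAA 2 times and GGGCGG 1 time. Windows were found for 26 of the 36 members, 30 windows in all; Itga6, Itga7, Itgal, Itgad, Itgae, Itgb2, Itgb3, Itgb4, Tln2 and Parva had no entry. GAGGAA was in 10 of the 30, against 23.3% of all 32851 windows, and at the same share in windows of transcribed and of other members, 7 of 21 and 3 of 9. GGGCGG was in 12 of 21 windows of transcribed members and in 1 of 9 of the other members, where all windows had 32.7%. These counts are of windows and not genes, and the share over windows of all transcribed genes was not computed. TATAAA was in 0 of the 30 windows and in 12.4% of all. These matches describe letters and not binding.

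The linkers were split by paralogue. Tln1, the talin that opens integrins in blood cells, was at 514, 486, 479 and 438 TPM in replicates 1 to 4, and Tln2, the talin of muscle and neurons, at 6.10, 6.54, 8.09 and 7.04 TPM. Among the kindlins, Fermt3, the form of blood cells, was at 245, 234, 249 and 228 TPM. Fermt2, the form of adherent tissue cells, was at 3.83, 6.91, 6.08 and 6.02 TPM, and Fermt1, the epithelial form, had 0 counts. The parvins link ILK to actin: Parvg, the blood cell form, was at 249, 210, 233 and 209 TPM, the second form Parvb at 60.5, 61.2, 64.5 and 55.5 TPM, and the more widely expressed Parva at 3.97, 6.26, 5.97 and 5.69 TPM. The leading form took 98.6% ± 0.226 of talin, 97.7% ± 0.571 of kindlin and 77.3% ± 1.59 of parvin TPM.

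The differences between paralogues were larger than their spread between libraries. Tln1 minus Tln2 was 5.92 ± 0.214, Fermt3 minus Fermt2 5.18 ± 0.341 and Parvg minus Parva 5.14 ± 0.355 on the log2(TPM + 1) scale, each positive in 4 of 4 libraries (exact permutation p = 0.13). Fermt3 and Parvg overlapped in range, as did Tln2, Fermt2 and Parva. Ilk, the pseudokinase at the centre of the complex, was at 40.4 TPM ± 3.89, and vinculin Vcl, which reinforces talin's hold on actin, at 8.90 ± 0.0938. The Ilk value is uncertain, since Taf10 on the other strand covers 89.7% of its exon bases in GENCODE M21; with the exon bases of no other gene as length it was 361 TPM ± 34.5, and the sources used here do not say whether counting used strand. For Vcl, Ap3m1 on the other strand covers 25.5%, and the same change of length gave 11.002 TPM.

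**Figure D4:**
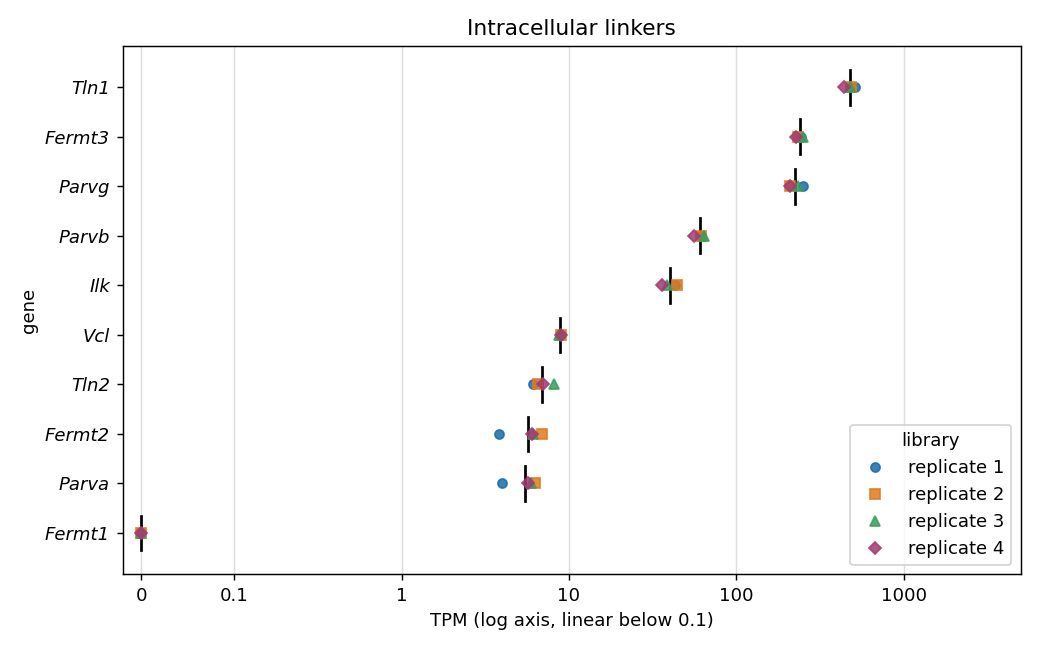
TPM of the 10 linker genes in each library on an axis that is logarithmic above 0.1; the black line is the mean. Tln1, Fermt3 and Parvg lie above 200 TPM, Tln2, Fermt2 and Parva lie below 10, and Fermt1 is at 0.

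Further genes of the pathway were read from 3 lists. Of 20 adaptors and kinases found at adhesions, 19 were transcribed, with a list median of 76.5 TPM ± 1.87, beside 1.68 ± 0.123 over all protein-coding genes and 6.67 ± 1.10 over the 36 members. The actin-tip protein gene Vasp was at 391 TPM ± 18.5, the crosslinker Flna at 348 ± 31.0, the leukocyte paxillin relative Lpxn at 308 ± 10.4 and the kinase PYK2, Ptk2b, at 225 ± 9.44. Focal adhesion kinase itself, Ptk2, was at 1.24 ± 0.138, and Lims2 was lowest at 1.01 ± 0.203.

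Of 22 activators and inhibitors of integrins, 20 were transcribed, or 90.9%, where 51.8% of all protein-coding genes were. The list median was 118 TPM ± 5.11, beside 1.68 over all protein-coding genes. Tyrobp, the adaptor that signals with integrins through Syk, was at 4672 TPM ± 360.1, the exchange factor Vav1 at 501 ± 11.2, the small GTPase Rap1b, which recruits talin, at 476 ± 43.5 and the Src family kinase Lyn at 364 ± 25.6. The lowest were Fgr, at 0.835 ± 0.255, and Rasgrp2, the Rap1 exchange factor of platelets, at 0.102 ± 0.1103.

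Of 30 ligands and TGF-beta partners, 23 were transcribed, or 76.7%, where 51.8% of all protein-coding genes were. The list median was 3.05 TPM ± 0.638, beside 1.68 over all protein-coding genes. Spp1, osteopontin, was at 1314 ± 79.9, F11r, a junction protein bound by LFA-1, at 354 ± 17.0, Tgfb1 at 236 ± 7.67 and Nrros, which tethers latent TGF-beta on microglia, at 195 ± 11.2. The lowest were Lrrc32, the like tether of other cells, at 0.176 ± 0.162 and Ltbp1 at 0.0878 ± 0.0598.

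The spread of the members between libraries was near that of all genes. The median coefficient of variation of the 25 transcribed members was 7.23% on CPM, against 8.18% over all 11704 genes at 1 CPM or more, and 16 of the 25 were under 10%. The widest were Itga7 at 31.9%, Itga3 at 26.3%, Itga1 at 24.5% and Fermt2 at 23.8%. Of the 28 members that passed the filter on low counts, 0 had a spread beyond that of genes of like abundance (edgeR deviance test with the trended dispersion, Benjamini-Hochberg adjusted over 12879 genes), where 1.11% of all genes did. At an unadjusted p under 0.05 there were 3 of these 28 members, Itga3, Itgal and Parva, where 875 of the 12879 genes were, and DESeq2 marked 0 members as dispersion outliers. In the 3 pathway lists 0 genes passed the same edgeR test, with 8 of 24 ligands, 0 of 20 adaptors and 1 of 21 activators tested at an unadjusted p under 0.05.

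Among transcribed members with at least 100 counts in every library, the 3 widest relative spreads were in genes lowest in replicate 1. Itga3 had 7.03 CPM in replicate 1 and 13.3, 11.98 and 9.55 CPM in replicates 2, 3 and 4 (edgeR unadjusted p = 0.0186, adjusted p = 0.46), Parva at 11.7, 18.8, 17.96 and 17.2 CPM (edgeR unadjusted p = 0.0420, adjusted p = 0.67) and Fermt2 at 5.78, 10.6, 9.35 and 9.27 CPM (edgeR unadjusted p = 0.0587, adjusted p = 0.78). In all 3 genes replicate 1 was below every other library. The cut at 100 counts left out Itga7, the widest of all at 31.9%, which was highest in replicate 1. Its values were 2.48, 1.79, 1.34 and 1.30 CPM in replicates 1 to 4. It also left out Itga1, at 24.5%. In total 7 of the 25 transcribed members were lowest in replicate 1: Itga3, Parva, Fermt2, Itga1, Itgax, Itgb8 and Tln2. Another 10 had their highest value there, and replicate 4 held the lowest value of 10 members. All 7 astrocyte markers were present in every library, and their sum was lowest in replicate 1, at 277, 434, 470.5 and 379 CPM in replicates 1 to 4. Of them 3, Clu, Gfap and Slc1a3, passed the spread test, as did P2ry12 among the 7 microglia and macrophage markers. The sums of the 7 fibroblast and mural markers, at 68.7, 89.6, 103.8 and 72.3 CPM, and of the 4 endothelial markers, at 13.9, 18.9, 23.4 and 17.7 CPM, were likewise lowest in replicate 1 and highest in replicate 3. The smooth muscle actin gene Acta2 made up most of the first sum and passed the spread test. Tagln and Pdgfrb were also lowest in replicate 1 and highest in replicate 3. By contrast Col1a1, at 6.29, 7.04, 2.33 and 4.18 CPM in replicates 1 to 4, Dcn and Lum were lowest in replicate 3. Pdgfra had 1 to 12 counts a library. The VEGF receptor gene Kdr, at 11.7 to 22.0 CPM, made up most of the second sum. Pecam1 went the other way, at 17, 14, 8 and 12 counts in replicates 1 to 4. Cldn5 had 16 counts in replicate 1 and 0 in the others, and Cdh5 had 25 to 31 counts a library. The part of RNA from any of these cell types in the members was not tested.

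Itgal went the other way, at 91.1, 77.4, 88.1 and 68.8 CPM (edgeR unadjusted p = 0.0384, adjusted p = 0.65), highest in replicate 1 and lowest in replicate 4. The 4 oligodendrocyte lineage markers summed to 112 to 124 CPM, mostly Mbp. Olig1 was at 6.70, 9.51, 11.8 and 8.78 CPM in replicates 1 to 4, Sox10 had 3 counts in all and Mog had 0. The part of these markers' cells in the members' values was not tested.

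**Figure D5:**
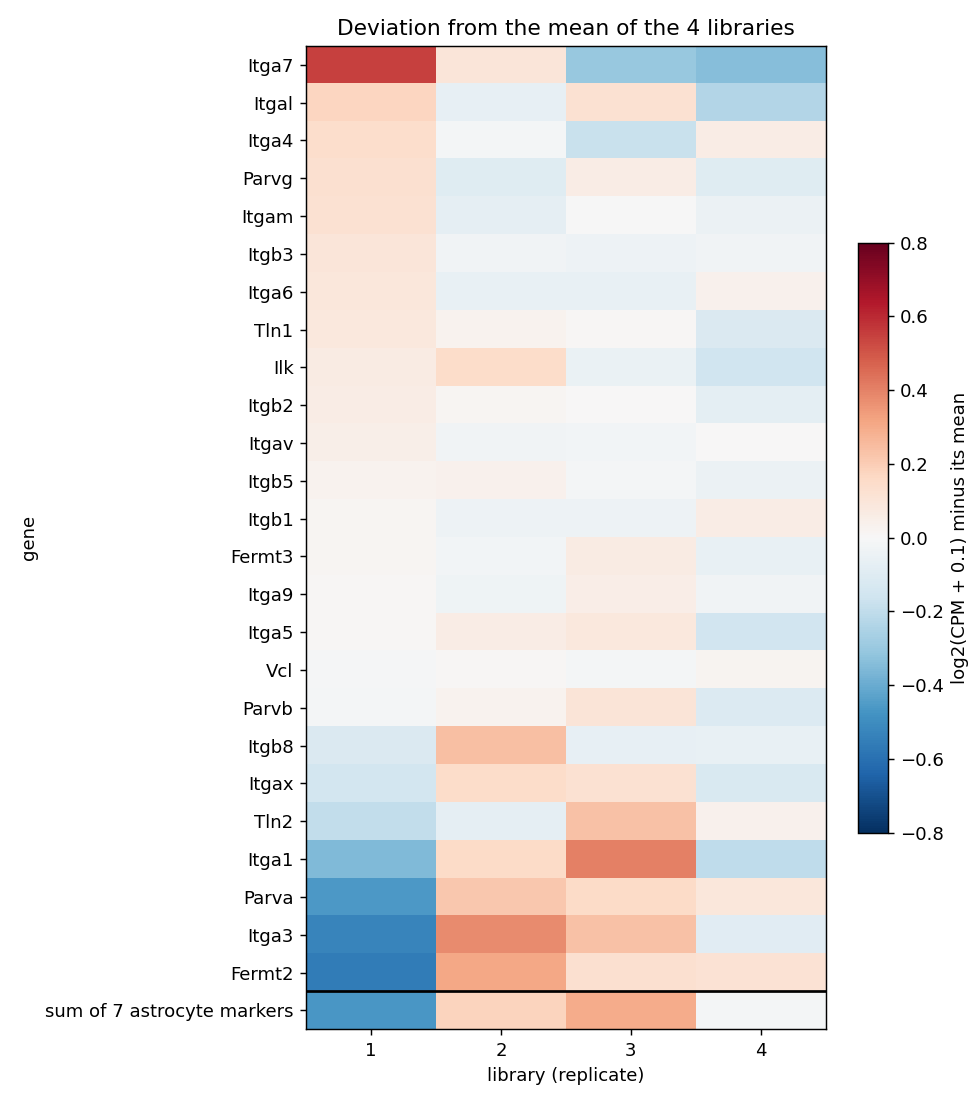
Deviation of log2(CPM + 0.1) from its mean over the 4 libraries for the 25 transcribed members, ordered by replicate 1, with the summed astrocyte markers in the bottom row. Itga3, Fermt2 and Parva share the low value of the astrocyte sum in replicate 1, Itga7 is high there, and most other members are near 0 in every library.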

How the data were processed

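For each of the 4 libraries the authors deposited raw read counts, 1 whole number per gene symbol. Per the submitters' processing notes, STAR 2.7.10a, SAMtools 1.16.1 and HTSeq 0.11.2 were used with mm39 (GRCm39); annotation, strand setting and overlap mode: not given in the sources used here. Summary lines (11.6% to 12.02% of reads) were left out; 0 columns belonged to no sample. CPM used summed gene counts. TPM used merged exon lengths of GENCODE M21 (GRCm38, lengths only), matched by symbol for 36 of 36 members, 89.1% of genes and 98.8% of counts; merged exons overstate the length of genes with many isoforms. Differences of log2(TPM + 1), a scale that understates low genes, were tested by exact sign-flip permutation, n = 4. Spread was tested in edgeR 4.0.16 (R 4.3.3; TMM, filterByExpr, deviance, 3 degrees of freedom, adjusted p under 0.05); DESeq2 1.42.0 was an alternative. On simulated data for this test, 73 of 100 genes changed 2-fold in 1 library and 98 of 100 changed 4-fold were called, and 0 of 12679 unchanged genes. In all, 12706 genes were fitted. The counts were drawn exactly at the fitted trend, so the 0 does not measure false calls among real genes, which scatter around it. Files differed from each other beyond counting noise (chi-square 5.39 to 14.5 times its degrees of freedom). Members, lists, motifs and tests were chosen with earlier results of these data known; motifs and the length over unshared exon bases were chosen after seeing the files. All members are named; of each pathway list, the 4 highest, the 2 lowest and any gene past the spread test.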

Additional observations from a re-analysis of the deposited data

Results flagged for a closer look

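In 2 of 29 members with a mean of at least 10 counts, 1 library stood apart from the other 3 by more than Dixon's 95% critical value; chance flags about 1 in 20 groups. Itgb3 was at 16.2 CPM in replicate 1 and at 14.7 to 14.8 CPM in the others. Itgb8 was at 12.4 CPM in replicate 2 and at 9.66 to 10.05 CPM in the others. The edgeR deviance test gave an unadjusted p of 0.891 for Itgb3 and 0.589 for Itgb8.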

How the results depend on the processing

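Of 99 values under alternative settings, 94 kept their direction or stayed within 1.5 times the count reported. Itgav minus Itga5, 0.18 in the report, was 0.63 with the longest transcript as length and 1.30 on CPM. Itgb2 minus Itgb1 turned to a mean of -0.053 without gene length (CPM), with Itgb2 still the higher chain in replicate 2. The number of genes with spread beyond the trend, 143 of the 12879 tested, was 532 with a common dispersion, 69 with DESeq2 dispersion outliers and 47 to 118 with 1 library left out; it was 47 without replicate 1 and 52 without replicate 3. The count of members was 0 in every one of these settings. Transcribed members numbered 22 to 28 and complete pairs 11 to 17 over the thresholds tried, and leaving out any 1 library, or TMM or DESeq2 scaling, left 25 and 14. With exon bases of no other gene as length, chosen after seeing the data, Itgam minus Itgal was 3.98 and Itgb2 was 0.941 times the sum of its alpha chains. No paired analysis was possible because the 4 libraries form 1 group. Depth limits the calls for members near 1 CPM, where 1 CPM stands for 23.2 to 28.5 reads.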
